A study of Mus musculus with 5 samples.

Results

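The genes described here are 8 members of the PARP family, Parp1, Parp2, Parp3, Parp8, Parp9, Parp10, Parp12 and Parp14, together with Dtx3l, a ubiquitin ligase that binds Parp9. They were taken by gene symbol from the platform annotation: 16 of the 45037 probe sets that are not array controls carry one of these 9 symbols. Of these, 15 name a single gene, and the only probe set for Parp10 is also annotated to Plec, so its signal belongs to either gene and is given as Parp10/Plec. All 16 probe sets were above the low-signal floor of 4.79 on all 5 arrays. The signals come from CD11b+ macrophages sorted from subcutaneous Matrigel plugs on day 8. The hosts were Balb/c SCID mice of 7 to 12 weeks carrying a transgenic T-cell receptor for the idiotype of the myeloma line MOPC315, which is part of the antibody that the line makes. SCID hosts make hardly any T or B cells of their own beyond T cells with the transgenic receptor, but they do have natural killer cells and myeloid cells. No group without the receptor was analysed here. The 3 tumoricidal arrays came from plugs with MOPC315 cells and the 2 control arrays from plugs with an antigen-loss variant of MOPC315. The labels call the arrays biological replicates and do not say whether animals were pooled.

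ADP-ribosylation is the transfer of ADP-ribose from NAD onto proteins or nucleic acids. Parp1 and Parp2 sense DNA breaks and build chains of ADP-ribose, whereas Parp3, Parp8, Parp10, Parp12 and Parp14 attach single units. Parp9 has little activity alone and works in a complex with Dtx3l, which is not a PARP, so the common name of mono-ADP-ribosyl transferases covers only some of the 9 genes. Parp9, Dtx3l, Parp10, Parp12 and Parp14 are known as interferon-inducible genes in many cell types, and Parp9 and Parp14 have been linked to the responses of macrophages to interferon-gamma and interleukin-4. The comparison asked whether these genes differed between macrophages from plugs with and without the antigen that the T cells recognise, with Parp1 and Parp2 alongside.

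Promoter sequences were available for 6 of the 9 genes, and 4 are shown to set a pair of interferon-linked members beside the DNA-break pair. Each window holds 250 bases before and 50 bases after the annotated start, from RefSeq on GRCm38.p6, and capitals mark every GAAA or its complement TTTC. GAAA is the half-site of the interferon-stimulated response element, and it was marked after the longer motifs given below had been searched.
Dtx3l, chr16:35938978-35939277, minus strand: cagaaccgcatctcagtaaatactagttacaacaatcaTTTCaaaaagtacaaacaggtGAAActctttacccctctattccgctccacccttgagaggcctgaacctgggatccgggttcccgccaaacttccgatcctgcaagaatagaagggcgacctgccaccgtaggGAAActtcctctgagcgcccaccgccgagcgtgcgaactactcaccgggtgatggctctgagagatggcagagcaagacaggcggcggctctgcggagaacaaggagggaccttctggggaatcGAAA
Parp12, chr6:39118300-39118599, minus strand: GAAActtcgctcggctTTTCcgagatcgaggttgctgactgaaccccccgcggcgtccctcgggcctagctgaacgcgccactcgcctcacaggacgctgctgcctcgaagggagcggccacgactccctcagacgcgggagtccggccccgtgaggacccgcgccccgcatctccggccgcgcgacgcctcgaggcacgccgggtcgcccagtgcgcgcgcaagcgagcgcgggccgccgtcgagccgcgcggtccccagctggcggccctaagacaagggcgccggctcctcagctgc
Parp1, chr1:180568641-180568940, plus strand: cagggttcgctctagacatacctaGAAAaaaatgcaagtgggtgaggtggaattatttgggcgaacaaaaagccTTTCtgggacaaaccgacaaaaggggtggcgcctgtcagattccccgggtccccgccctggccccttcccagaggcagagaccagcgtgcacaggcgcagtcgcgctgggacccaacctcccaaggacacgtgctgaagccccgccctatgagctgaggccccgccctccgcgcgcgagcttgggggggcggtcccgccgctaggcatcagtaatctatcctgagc
Parp2, chr14:50807666-50807965, plus strand: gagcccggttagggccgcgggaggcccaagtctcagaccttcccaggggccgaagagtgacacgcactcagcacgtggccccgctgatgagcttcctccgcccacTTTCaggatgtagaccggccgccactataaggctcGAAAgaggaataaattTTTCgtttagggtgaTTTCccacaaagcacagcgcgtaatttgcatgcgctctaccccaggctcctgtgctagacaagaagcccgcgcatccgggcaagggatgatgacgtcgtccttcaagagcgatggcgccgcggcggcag

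The half-site occurred 4 times in the window of Dtx3l, 2 times in that of Parp12, 2 times in that of Parp1 and 4 times in that of Parp2. Of 32851 promoter windows of this length, 89.2% held at least 1 and 37.4% held 4 or more, with a median of 3. The longer core GAAANNGAA of the response element and the gamma-activated site TTCNNNGAA were searched on both strands too. Neither had a match in any of the 6 windows, which also include Parp3 and Parp8, while 8.56% and 8.3% of all windows held them. These counts describe the letters in these windows and do not separate Dtx3l and Parp12 from Parp1 and Parp2. No window was available for Parp9, Parp10 and Parp14.

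For 5 of the 6 probe sets of Parp9, Dtx3l, Parp12 and Parp14, the signal was higher on every tumoricidal array than on both control arrays, and for 0 of the 5 of Parp1 and Parp2. The exception is a second Parp14 probe set. Parp9, Dtx3l, Parp12 and Parp14 stood between 1.82-fold and 2.53-fold above control by the probe set with the highest mean of each gene. Parp1 stood at 1.03-fold and Parp2 at 0.933-fold. None of the 16 probe sets was called by limma at an adjusted p under 0.05, in either direction, over 41053 probe sets tested. In the same fit 0.0341% of all probe sets (14) were called higher and 0.0171% (7) lower, and 0 in either direction once any 1 array was left out. At an unadjusted p under 0.05, 7 of the 16 were higher and 0 lower, beside 4.92% and 3.07% of all probe sets. Groups were fully apart upward for 9 of the 16 and downward for 2, beside 13.3% and 7.6% of all probe sets.

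**Figure D1:**
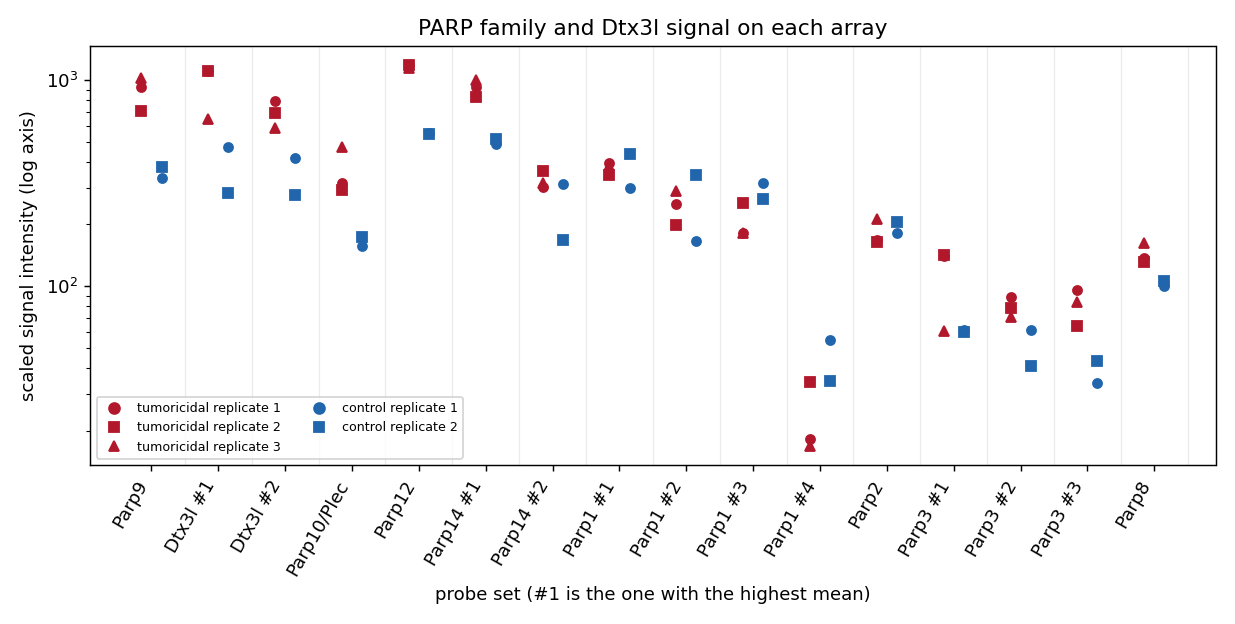
Scaled signal intensity (log axis) of the 16 probe sets on the 5 arrays, red for tumoricidal and blue for control, with the marker shape giving the replicate. Parp9, both Dtx3l probe sets, Parp10/Plec, Parp12 and the brighter Parp14 probe set have every red point above both blue points, while the points of Parp2 and the 2 brightest Parp1 probe sets overlap.

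Parp9 is a macrodomain protein that reads ADP-ribose and helps Dtx3l act on chromatin. Its scaled signals (probe set 1416897_at) were 925, 706 and 1025 on the tumoricidal arrays and 337 and 381 on the controls, listed here and below in replicate order. All 3 tumoricidal values lay above both controls, with replicate 2 the nearest to them. The means were 885 ± 163 (SD, n = 3) and 359 ± 31.3 (SD, n = 2), a difference on the log2 scale of 1.29 (SE 0.27, adjusted p by limma = 0.286, 95% interval 0.62 to 1.96). Only 1.77% of the tested probe sets had a larger upward difference.

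Dtx3l, the partner of Parp9, has 2 probe sets. The brighter (1439825_at) read 1112, 1112 and 645 on the tumoricidal arrays and 476 and 283 on the control arrays. Tumoricidal replicate 3 was the lowest of its group and control replicate 1 the higher of its pair, and the groups did not overlap. The log2 difference was 1.34 (SE 0.39, adjusted p by limma = 0.45). Leaving out control replicate 2 gave 0.96, and leaving out control replicate 1 gave 1.72. The other probe set (1435208_at) read 795, 691 and 586 against 417 and 279 and differed by 1.01 (SE 0.30), with the same arrays at the top and bottom of the controls.

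Parp12 carries CCCH zinc fingers that bind RNA and restricts the growth of several viruses. Relative to their means its signals varied least among the members, at 1186, 1180.3 and 1145 in tumoricidal and 557 and 551 in control arrays. Replicates differed far less than the groups did. The means were 1170.4 ± 22.1 (SD, n = 3) and 554 ± 4.77 (SD, n = 2), a difference on the log2 scale of 1.08 (SE 0.22, adjusted p by limma = 0.270). Because limma shares its estimate of spread across probe sets, this SE is wider than the spread of these 5 values alone.

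Parp14 is a large macrodomain protein known as a coactivator of Stat6 in interleukin-4 signalling. Its brighter probe set (1451564_at) read 923, 829.7 and 1006 in tumoricidal arrays and 492 and 518 in control arrays. These groups did not overlap, and the log2 difference was 0.86 (SE 0.23, adjusted p by limma = 0.411). The dimmer probe set (1432548_at) read 302, 361 and 317 against 313 and 168. Here control replicate 1 lay within the tumoricidal range, and the log2 difference was 0.51 (SE 0.34, adjusted p = 0.798). The median of both probe sets gave 0.68 for Parp14, and within the spike-in sets described below the dimmer one differed by 0.08 and 0.92. Both Parp14 probe sets thus differed upward, with groups apart only for the brighter. The difference between the probe sets was not tested, and the annotation does not say which transcripts each one reads.

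The Parp10/Plec probe set (1452178_at) read 317, 294 and 474 in tumoricidal arrays and 157 and 173 in control arrays. Tumoricidal replicate 3 was the highest, and no array overlapped. The log2 difference was 1.10 (SE 0.30, adjusted p by limma = 0.415), or 0.89 without that replicate. Parp10 is a mono-ADP-ribosyl transferase that binds ubiquitin, and Plec encodes the cytoskeletal linker plectin. The share of each gene in the signal was not tested.

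Parp1, the main sensor of DNA strand breaks, has 4 probe sets that did not move together. The brightest (1422502_at) read 397, 347 and 383 in tumoricidal arrays and 301 and 441 in control arrays. The controls enclosed all tumoricidal values, and the log2 difference was 0.04 (SE 0.27, adjusted p by limma = 0.974, 95% interval -0.63 to 0.71). The next (1422503_s_at) differed by 0.03 (SE 0.39), again with the controls at both ends, at 166 and 346. The third (1435368_a_at) read 182, 253 and 183 against 318 and 266, a difference of -0.52 (SE 0.27, adjusted p = 0.761). The dimmest (1443573_at) read 18.1, 34.5 and 16.8 against 55.0 and 34.8 and differed by -0.998 (SE 0.42, adjusted p = 0.652), with tumoricidal replicate 2 just under control replicate 2. The 2 dimmer Parp1 probe sets are the 2 of the 16 that were fully apart downward.

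Parp2, the close relative of Parp1, read 168, 164 and 213 in tumoricidal arrays and 182 and 205 in control arrays. The groups overlapped, and the log2 difference was -0.10 (SE 0.25, adjusted p by limma = 0.927, 95% interval -0.72 to 0.52). The intervals leave room for changes from 0.646-fold to 1.64-fold for the brightest Parp1 probe set and from 0.606-fold to 1.44-fold for Parp2. The direction of the brightest Parp1 probe set turned with the scaling, to -0.19 both with quantile normalization and with the deposited scaling. It was 0.32 without control replicate 2 and -0.23 without control replicate 1, which lies lowest of all 5 arrays for this probe set.

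Parp3 is a mono-ADP-ribosyl transferase that acts at DNA breaks and has 3 probe sets. Its probe set 1451969_s_at read 95.8, 64.4 and 84.4 in tumoricidal arrays and 34.2 and 43.6 in control arrays, which did not overlap. The log2 difference was 1.06 (SE 0.29, adjusted p by limma = 0.411). The brightest Parp3 probe set (1426210_x_at) read 140.1 and 142 in tumoricidal replicates 1 and 2 but 61.0 in replicate 3, level with the 61.6 and 60.2 of the controls. Its difference was 0.81 (SE 0.44, adjusted p = 0.765), and 1.21 without tumoricidal replicate 3. The remaining one (1445888_x_at) differed by 0.66 (SE 0.29). In Affymetrix naming, _x_at marks probe sets that can bind other transcripts too and _s_at those whose probes are shared by several transcripts, so none of the 3 for Parp3 is marked as specific to 1 transcript. Parp8, a mono-ADP-ribosyl transferase whose role is little known, read 137, 131 and 162 against 100.04 and 106. The groups did not overlap, and the log2 difference was 0.47 (SE 0.24, adjusted p = 0.747).

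**Figure D2:**
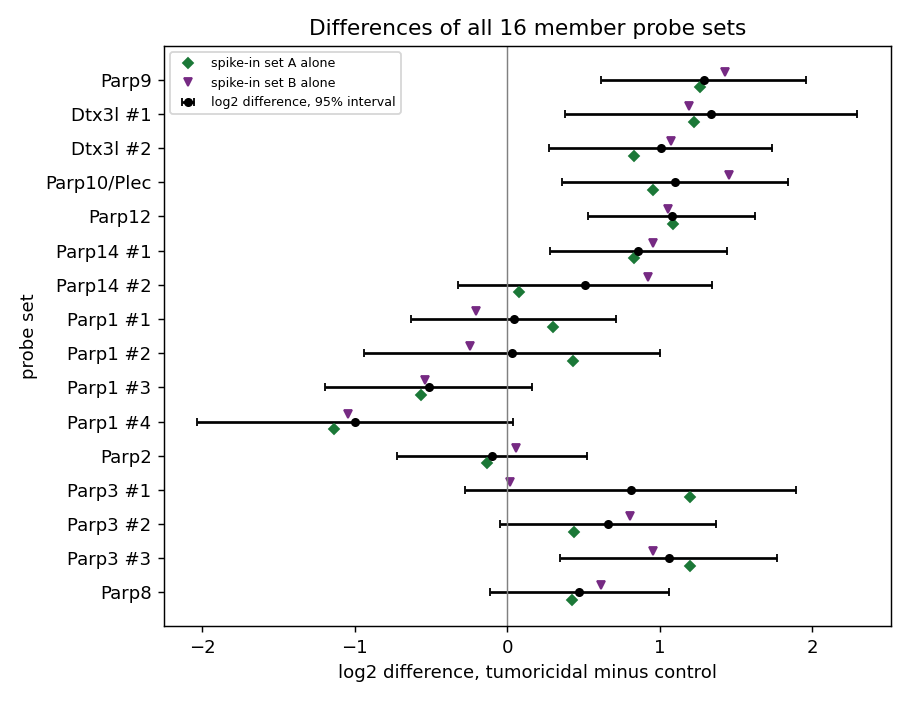
Log2 difference (tumoricidal minus control) of the 16 probe sets with the 95% interval of limma (black), and the difference within spike-in set A (green) and B (purple). Parp9, Dtx3l, Parp10/Plec, Parp12, the brighter Parp14 and 1 Parp3 probe set have intervals above 0, while those of Parp1, Parp2 and Parp8 include 0.

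The array's spike-in control probe sets, RNA added during labelling and hybridisation, divided the arrays into set A (tumoricidal replicates 1 and 2, control replicate 1) and set B (tumoricidal replicate 3, control replicate 2). Within set A the log2 differences were 1.26 for Parp9, 1.22 for Dtx3l, 1.09 for Parp12, 0.83 for Parp14 and 0.96 for Parp10/Plec. Within set B they were 1.43, 1.19, 1.06, 0.96 and 1.45 in the same order. Parp1 and Parp2 differed by 0.30 and -0.14 within set A and by -0.21 and 0.05 within set B, so both changed sign between the sets. The brightest Parp3 probe set differed by 1.20 in set A and 0.02 in set B. Set B holds 1 array per group, so these are values without a test.

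Members were then set against Parp1 and Parp2 on the same array, which cancels the scaling between arrays. For this the mean log2 signal of the brightest Parp1 and Parp2 probe sets was subtracted from every probe set before the same limma fit. Relative to this pair, Parp9 differed by 1.32 (SE 0.26, 95% interval 0.69 to 1.95, adjusted p by limma = 0.232) and Parp12 by 1.11 (SE 0.27, 0.45 to 1.77, adjusted p = 0.332). Dtx3l differed by 1.37 (SE 0.48, adjusted p = 0.526), but by 0.81 without control replicate 2 and 1.92 without control replicate 1. Parp14 differed by 0.89 (SE 0.25, adjusted p = 0.418) and Parp10/Plec by 1.13 (SE 0.28, adjusted p = 0.333). Parp8 differed by 0.50 (SE 0.25, adjusted p = 0.701). Parp3, by its brightest probe set, differed by 0.84 (SE 0.50, 95% interval -0.37 to 2.05, adjusted p = 0.749), and by 0.09 within spike-in set B. No member was called, beside 0.0877% of all probe sets called higher and 0.0317% lower in this fit. At an unadjusted p under 0.05, 7 of the 16 were higher and 0 lower, beside 5.6% and 2.62% of all. The 16 include the brightest Parp1 and Parp2 probe sets, which form the reference. Their relative differences (0.07 and -0.07) are therefore equal and opposite by construction.

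The calls in the relative fit depended on how limma modelled the spread. With a trend of the spread on the mean signal, 4 of the 16 were higher at an adjusted p under 0.05, beside 1.12% of all probe sets. These were Parp9 (adjusted p = 0.00798), Parp12 (0.0245), Parp10/Plec (0.0316) and Parp14 (0.0413), and Dtx3l was not among them (0.148). Over all alternatives the adjusted p ran up to 0.749 for Parp9, 0.77 for Parp12, 0.807 for Parp10/Plec and 0.844 for Parp14. The relative difference itself stayed positive for each of these 5 under every alternative run.

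As a summary over genes, the mean log2 signal of Parp9, Dtx3l, Parp12 and Parp14 minus that of Parp1 and Parp2 was taken on each array. The tumoricidal arrays had 1.998, 1.97 and 1.71, and the controls 0.97 and 0.48. All 3 tumoricidal arrays lay above both controls, with a difference of 1.17 between the group means. The difference was 1.02 within set A and 1.23 within set B. As these genes were chosen with earlier results of the same arrays known, this is a description without a test.

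**Figure D3:**
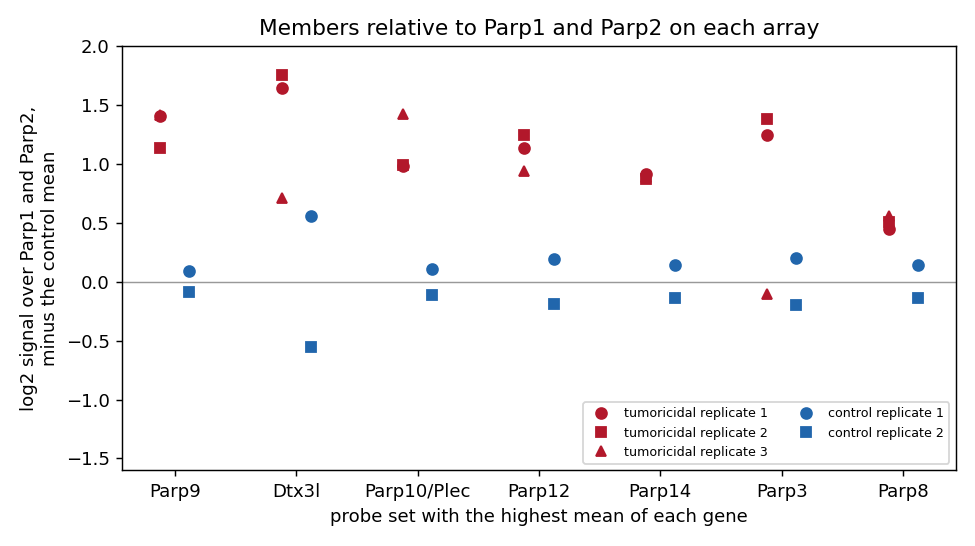
Log2 signal of each member over the mean of Parp1 and Parp2 on the same array, with the control mean of each gene set to 0 (red tumoricidal, blue control). For Parp9, Parp12, Parp14, Parp10/Plec and Parp8 the 3 red points lie clear of both blue points, whereas for Dtx3l tumoricidal replicate 3 comes close to control replicate 1 and for Parp3 it falls among the controls.

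Parp14, Dtx3l and Parp9 lie next to each other on mouse chromosome 16, parted only by 2 pseudogenes in the RefSeq annotation of GRCm38.p6. Of the 5 annotated genes on either side, 7 of 10 had a named probe set that was tested. The directly flanking protein-coding genes were Hspbap1, at -0.08 on the log2 scale (SE 0.30), and Kpna1, an importin of the nuclear import machinery, at 0.05 (SE 0.27). Groups overlapped for both. Slc49a4 (-0.08), Fam162a (-0.02) and Ccdc58 (0.14) overlapped too. The semaphorin Sema5b stood at 0.82 (SE 0.28, adjusted p by limma = 0.557) and Wdr5b at -0.58 (SE 0.23, adjusted p = 0.605), with groups apart for each. Among the 10 tested genes of this stretch the upper 3 were Dtx3l, Parp9 and Parp14, each by its probe set with the highest mean. The dimmer Parp14 probe set, at 0.51, and the median of both Parp14 probe sets, at 0.68, lay below Sema5b. The difference between the 3 members and their neighbours was not tested.

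**Figure D4:**
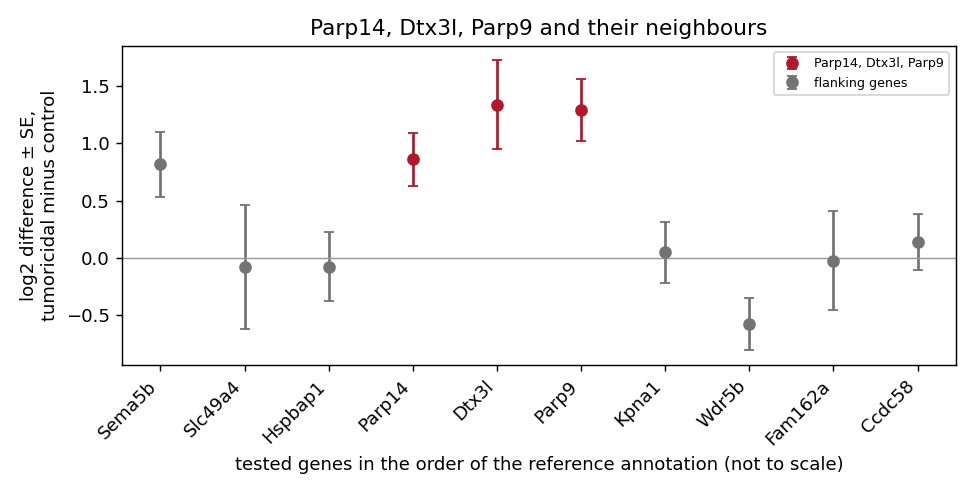
Log2 difference (tumoricidal minus control, ± SE of limma) of the tested genes around Parp14, Dtx3l and Parp9 in annotation order, not to scale. By the probe set with the highest mean of each gene, the 3 members stand at 0.86, 1.34 and 1.29. Hspbap1 and Kpna1 on their flanks stand at -0.08 and 0.05, and Sema5b at 0.82.

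Genes linked to ADP-ribosylation were read in 6 lists, and no gene of any list was called by limma at an adjusted p under 0.05. The median difference of all 17074 named genes was 0.13 on the log2 scale. At an unadjusted p under 0.05 by limma, 4.92% of all tested probe sets were higher and 3.07% lower. Those shares are per probe set, whereas the counts in the lists are per gene by its probe set with the highest mean. Of 8 further PARP family members measured, 1 was higher at an unadjusted p under 0.05 and 0 lower, and the median was 0.21. That gene was Parp11, a mono-ADP-ribosyl transferase found at nuclear pores. It read 241, 221 and 194 in tumoricidal and 109 and 106 in control arrays, a difference on the log2 scale of 1.02 (SE 0.24, adjusted p = 0.336). Parp16 of the endoplasmic reticulum (-0.64, SE 0.51) and Parp4 of vault particles (0.49, SE 0.37) overlapped between groups.

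Genes that supply or use NAD, the source of ADP-ribose, had a median of 0.33 over 17 measured genes, with 4 higher at an unadjusted p under 0.05 and 0 lower. Ido1, which opens the breakdown of tryptophan toward NAD, read 30.3, 19.3 and 25.5 in tumoricidal arrays and lay under the floor in both controls. It was therefore at least 5.14-fold higher (adjusted p by limma = 0.0970). Kynu, a later enzyme of the same route, read 17.5, 21.6 and 41.1 against 6.50 in control replicate 2, with control replicate 1 under the floor, so that its log2 difference of 2.16 is a lower bound. Nampt, the rate-limiting enzyme of NAD salvage, read 1526, 1207 and 2238 against 411 and 789, a difference on the log2 scale of 1.49 (SE 0.42, adjusted p = 0.423). The groups did not overlap for these 3 genes.

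Genes that remove or bind ADP-ribose had a median of 0.12 over 11 measured, and 0 passed an unadjusted p of 0.05 in either direction. The largest differences were Macrod2 (0.72), Aplf (-0.66) and Macroh2a1 (0.55, SE 0.23), the histone variant with a macrodomain. Macroh2a1 read 1006, 948 and 915 against 622 and 689, without overlap, whereas Macrod2 and Aplf each had 1 array under the floor, and for Aplf every tumoricidal value lay below both controls. Partners of Parp1 in single-strand break repair had a median of 0.10 over 11 measured, with 0 past that threshold in either direction. Aptx (0.59), Ogg1 (-0.57) and Fen1 (-0.47) differed most. The other Deltex ligases had a median of -0.39 over 4 measured, with 0 higher and 1 lower at an unadjusted p under 0.05. That gene, Dtx4, read 61.3, 56.0 and 58.0 against 100.8 and 119, a difference on the log2 scale of -0.91 (SE 0.23, adjusted p = 0.383), with groups apart. Dtx3 stood at -0.56, Dtx2 at -0.22 and Dtx1 at 0.20 (SE 0.77), and the difference of Dtx3l from these ligases was not tested.

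**Figure D5:**
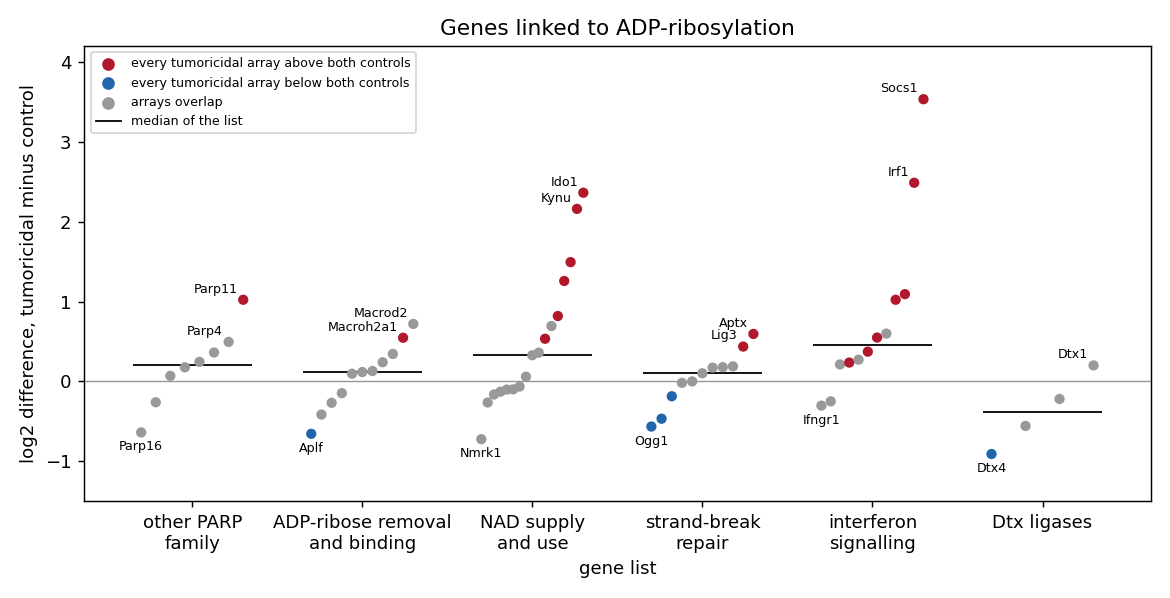
Log2 difference (tumoricidal minus control) of the genes in 6 lists linked to ADP-ribosylation, each point 1 gene, red or blue where the arrays of the groups did not overlap, with a line at the list's median. Medians run from -0.39 for the Deltex ligases to 0.46 for interferon signalling, and Socs1, Irf1, Ido1 and Kynu stand highest.

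Interferon signal transducers had a median of 0.46 over 12 measured genes, with 4 higher at an unadjusted p under 0.05 and 0 lower. Socs1, the feedback inhibitor of JAK kinases, differed by 3.53, Irf1 by 2.49 and Jak2 by 1.09, all without overlap between groups. The genes whose profile over the 5 arrays was nearest to the mean of Parp9, Dtx3l, Parp12 and Parp14 were Atp10a, Arhgap15, Lrrk1, Siglecg, Cd52 and 1600014C10Rik. Their root mean square distances from it were between 0.0374 and 0.082 log2 units, among 11998 named genes above the floor on all arrays. Nearest to Parp1 were Phf13, Septin11 and Rnf166, at 0.0123 to 0.0317. With 5 arrays such nearness is a description only.

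Markers of other cells moved with the groups, and in sorted bulk samples more cells of a type and more RNA per cell cannot be told apart. Marker counts here and in the next paragraph are per gene. Of all tested probe sets, 13.3% had groups apart upward and 7.6% downward. The 7 measured macrophage markers, among them Csf1r, Adgre1 and Itgam (CD11b), were well above the floor on all arrays, with summed signals of 18254 to 25087 in tumoricidal and 16405 to 20342 in control arrays. All 6 measured natural killer cell markers were higher in each tumoricidal array, with summed signals of 1130 to 3173 against 223 to 531. Gzma was the largest part of each sum. Tumoricidal replicate 3 had the lowest sum of its group and was the lowest for each of these markers except Klrk1 (593, 304 and 425). That replicate was also the lowest of its group for both Dtx3l probe sets and for Parp12, the highest for Parp9, Parp10/Plec and the brighter Parp14 probe set, and in between for the dimmer one. Without it Dtx3l differed by 1.60 and Parp9 by 1.17. T-cell markers (6 measured) had a summed signal of 1231 on tumoricidal replicate 2, while replicates 1 and 3 had 116 and 94.4 and the controls 166 and 79.1. By gene, 3 of the 6 were higher on every tumoricidal array without overlap and 0 lower, with a median log2 difference of 1.82. Cd3g, for instance, read 31.5, 185 and 25.9 against 14.3 and 8.5. Other T-cell markers went the other way on tumoricidal replicates 1 and 3. Cd28 read 35.4, 316 and 21.3 against 94.5 and 45.8, and Cd4 read 5.19, 33.4 and 5.14 against 13.9 and 9.6. Cd3d on these replicates, at 22.8 and 20.8, lay between the controls (30.0 and 11.3). Without tumoricidal replicate 2, Parp9 differed by 1.44, Dtx3l by 1.21, Parp12 by 1.07 and Parp14 by 0.93.

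Plasma-cell markers, the lineage of the injected myeloma, summed to 3587 to 4879 in tumoricidal and 5631 to 6287 in control arrays over 8 measured genes, with 5 lower and 2 higher without overlap, a median log2 difference of -1.41 and Tnfrsf17 under the floor on all 3 tumoricidal arrays. Xbp1, which is not limited to plasma cells, made up most of the tumoricidal sums, and the other 7 genes summed to 489 to 1581 against 3175 to 3566. Both dimmer Parp1 probe sets were lower in the same arrays, and the part of myeloma RNA in their signal was not tested. Neutrophil markers (6 measured) summed to 9566 to 10854 against 4280 to 7048, and S100a8 and S100a9 made up most of these sums. Groups were apart upward for 3 of the 6 (Cxcr2, S100a8 and S100a9) and downward for 0. They overlapped for Csf3r (0.54), Elane (-0.35) and Mpo (-0.29). The part of neutrophil RNA in the member signals was not tested. B-cell markers (4 measured) summed to 44.7 to 71.6 against 70.1 to 98.3, and fibroblast and endothelial markers (7 measured) to 585 to 1837 against 879 to 1316. The 9 measured proliferation genes had a median difference of -0.02, with no groups apart, and summed to 2960 to 3968 against 2592 to 4033.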

How the data were processed

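Affymetrix arrays (biotin-labelled cRNA from 6 µg total RNA per the labels' protocols) gave 1 table, in which the authors deposited linear signal intensity per probe set for 5 arrays. As to software, probe summary and scaling: not given in the sources used here. Deposited array medians differed by up to 1.47 times, although the mean after removal of 2% at either end was 100 on each array.

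Arrays were scaled to the median of their medians (18). The 64 control probe sets were left out, values under the pooled 25th percentile (4.79) were set to that floor before log2, and 3984 probe sets that never exceeded the floor stayed out of the test. The other 41053 were compared with limma (lmFit and eBayes, no trend, no covariate, two-sided, Benjamini-Hochberg, threshold 0.05), and again relative to Parp1 and Parp2. The tools were limma 3.58.1 in R 4.3.3, and matplotlib 3.10.9 under Python 3.11.15.

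Symbols came from the platform annotation, updated through Entrez identifiers to RefSeq of GRCm38.p6 (0 changed), with 34945 probe sets having 1 symbol, 932 several and 9160 none. The probe set with the highest mean stands for a gene. Listed genes with no singly named probe set are not analysed here. Named were all members, up to 3 genes per list with the largest difference, the neighbours and the nearest profiles. The markers and Dtx1 were named beyond that rule after their values were seen. Members and lists were chosen with earlier results of these data known. Arrays give no counts, so their number limits the precision.

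Alternatives were quantile and deposited scaling, a floor at the 10th percentile, only probe sets above the median, limma with trend, the spike-in sets or the replicate number as a block, each array left out, other probe sets and other references.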

Additional observations from a re-analysis of the deposited data

How the results depend on the processing

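No member probe set was called under any alternative of the plain comparison, and the differences of Parp9, Dtx3l, Parp12, Parp14, Parp3, Parp8 and Parp10/Plec stayed positive under each one run. The lowest were 1.02 for Parp9, 0.78 for Parp12 and 0.57 for Parp14 with quantile normalization, 0.96 for Dtx3l without control replicate 2, 0.87 for Parp10/Plec and 0.24 for Parp8 with the deposited scaling, and 0.02 for Parp3 in spike-in set B alone. The median of all tested probe sets moved from 0.09 to -0.105 with the deposited scaling. Parp1 changed sign in 5 alternatives: -0.19 with quantile normalization, -0.19 with the deposited scaling, -0.21 in spike-in set B alone, -0.22 as the median over its probe sets and -0.23 without control replicate 1. With other arrays left out, Parp1 reached up to 0.32 (without control replicate 2). Parp2 turned to 0.0547 in set B alone. Relative to Parp1 and Parp2, limma with trend called 4 member probe sets in place of 0, and the cause was not tested. The mean of the interferon-linked members over Parp1 and Parp2 was lowest at 0.93, with control replicate 2 left out, and highest at 1.42, with control replicate 1 left out. With Parp10/Plec included, an alternative chosen after seeing the data, it was 1.16. Over the whole array, calls went from 14 higher and 7 lower to 168 and 25 with only probe sets above the median, to 58 and 7 with trend, and to 0 and 0 with the lower floor, either block or any array left out.

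With the replicate number as a block (replicate block), which leaves tumoricidal replicate 3 without a partner, limma called 0 members, and Parp9 differed by 1.17 and Dtx3l by 1.60 (adjusted p = 0.908 for each). Deviations of arrays with number 1 correlated at 0.0235 and of number 2 at -0.237, and the numbers were not taken to pair the arrays. With 2 controls the correlations with one mirror those with the other, so they cannot show whether arrays of 1 number share more than the number. With the spike-in sets as a block Parp9 stood at 1.33 and 0 members were called. With 3 against 2 arrays the 95% intervals of single members spanned over 1 log2 unit, which is the depth limit here.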
